A study of Rattus norvegicus with 138 samples.

Results

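Igfbp5, which encodes insulin-like growth factor binding protein 5, had lower mean levels in spontaneously hypertensive rats (SHRs) than in WKY rats in the nucleus tractus solitarius (NTS), and higher ones in the caudal and rostral ventrolateral medulla (CVLM and RVLM). It is described here with the other genes of the insulin-like growth factor (IGF) system, by gene symbol in the expression tables of the 3 regions. The 10 genes are the ligands Igf1 and Igf2, the receptors Igf1r and Igf2r, and the binding protein genes Igfbp2, Igfbp3, Igfbp4, Igfbp5, Igfbp6 and Igfbp7. They are 10 of 32883 genes listed in each table, and all 10 are among the 13116 genes that passed the filter on low expression in all 3 regions. Igfbp5 was chosen on its measured strain effect, which differs in sign between regions, so its levels by strain and region are given as a description and without a test. The tests of the strain effect cover the other 9 genes.

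RNA was sequenced from tissue punches of 46 female rats, 18 normotensive WKY/NHsd (WKY) rats and 28 SHR/NHsd rats (SHRs), with no other treatment named in the labels. The authors regard SHRs of 8 wk as prehypertensive and place the onset of hypertension at 10 to 12 wk. They recorded blood pressure at 12 and 24 wk. WKY rats numbered 5 at 8 wk, 4 at 10 wk and 3 each at 12 wk, 16 wk and 24 wk, and SHRs 5, 5, 6, 6 and 6 in the same order of ages. Punches from both sides of the frozen brainstem of 1 rat were joined to 1 sample per region, which gave 46 libraries per region. The labels list each sample of a region as a separate rat. The comparisons ask which genes differ between the strains in each region while hypertension develops. SHRs and WKY rats differ in their whole genetic background and not in blood pressure alone, so an effect of strain and one of hypertension cannot be told apart. The NTS is the first relay of baroreceptor signals in the brainstem, the CVLM holds neurons that inhibit the RVLM, and the RVLM drives sympathetic outflow.

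IGF-1 and IGF-2 are growth factors that promote the survival and growth of neurons and glia. Both signal through the IGF-1 receptor, a tyrosine kinase, while the IGF-2 receptor, which also sorts lysosomal enzymes, takes up IGF-2 and leads it to degradation. Secreted IGF binding proteins hold the ligands outside the cell, and can block or prolong their action until proteases release them.

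A library held between 5904581 and 17889417 counts (median 10143036). Levels are given in CPM, the counts scaled to a fixed total after TMM normalization over the libraries of all regions, and each log2 fold change sets SHRs against WKY rats. A gene is called changed when its Benjamini-Hochberg adjusted p is under 0.05 in edgeR's quasi-likelihood test. The strains can lie fully apart at an age without a call, since the groups hold few rats. The share of all genes that lie apart in this way was not counted. Library names end in 1 or 2, with a meaning not given in the sources used here. The number 2 marks all libraries of 10 wk, 3 of the 5 WKY rats at 8 wk and 1 SHR each at 12 and 24 wk, and 2 CVLM libraries with conflicting age labels were placed at 8 wk. Markers of choroid plexus, a secretory tissue of the ventricle beside the NTS, summed to over 100 CPM in 5 NTS libraries and 1 CVLM library, all of WKY rats, and to at most 24.1 CPM in every SHR library. The sum reached 4533 CPM in NTS WKY replicate 2 at 12 wk. Pnmt, which marks adrenergic neurons, averaged 45.1 and 41.4 CPM in the CVLM of WKY rats and SHRs but 19.5 and 26.5 CPM in the RVLM, where C1 adrenergic cells are known to lie. Markers of motor neurons were highest in the RVLM, with median sums of 1827 and 1715 CPM against 136 and 153 CPM in the CVLM.

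IGFBP-5 is the most conserved of the binding proteins and also binds extracellular matrix. In the NTS, Igfbp5 averaged 63.1 ± 45.1 CPM (SD, n = 18) in WKY rats and 34.5 ± 21.0 CPM (n = 28) in SHRs. WKY rats ran from 12.7 to 168 CPM with a median of 50.4, and SHRs from 12.4 to 87.6 CPM with a median of 29.3. The ranges of the strains overlapped up to 87.6 CPM, the highest SHR, and all libraries above this level were of WKY rats. These high libraries were of 8 to 12 wk, apart from WKY replicate 2 of 24 wk at 93.7 CPM. In these tissue punches, fewer cells of a type and less RNA per cell cannot be told apart, here or for any gene that follows.

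In the CVLM the order of the strains was the opposite. Igfbp5 averaged 24.5 ± 7.63 CPM (SD, n = 18) in WKY rats and 85.8 ± 22.2 CPM (n = 28) in SHRs. WKY rats ran from 12.6 to 42.5 CPM with a median of 22.5, and SHRs from 40.3 to 134 CPM with a median of 88.0. Only 1 SHR, at 12 wk, lay below the highest WKY rat. In the RVLM the gene was lowest, with 9.46 ± 4.92 CPM in WKY rats and 13.6 ± 4.04 CPM in SHRs, and the ranges of 3.93 to 23.0 and 5.62 to 24.4 CPM overlapped.

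The log2 fold change of Igfbp5 over all ages was -0.83 (SE 0.25) for the NTS, 1.78 (SE 0.12) for the CVLM and 0.47 (SE 0.14) for the RVLM. The value of the NTS moved between -0.92 and -0.60 when single rats were left out, and was -0.80 without the 5 libraries rich in choroid plexus markers. The CVLM value stayed between 1.74 and 1.82. Among 13116 genes, 2 had a strain effect over ages of at least 1.5-fold in opposite directions in the NTS and CVLM. They were Igfbp5 and Apeg3. Igfbp5 was chosen for this difference in sign, so its place in this count was set by the choice and is no support. The log2 fold changes of Apeg3, an antisense transcript of the imprinted gene Peg3, were 1.82 for the NTS, -1.50 for the CVLM and 1.75 for the RVLM. RSEM was run with default settings, which use no strand, so reads of Apeg3 and Peg3 cannot be told apart where they overlap.

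By age, the NTS estimates were below 0 at the first 3 ages and near 0 at 16 and 24 wk. At 8 wk the 5 WKY rats had 13.0, 60.2, 77.4, 88.6 and 17.8 CPM and the 5 SHRs 14.2, 12.4, 37.9, 16.0 and 14.6 CPM. At 12 wk the WKY rats had 114, 168 and 78.8 CPM, and the 6 SHRs 15.5 to 32.8 CPM with a median of 23.2. In the libraries with 168 and 78.8 CPM, choroid plexus markers summed to 4533 and 790 CPM, and their part in the value at 12 wk was not tested. All 6 SHRs lay below all 3 WKY rats at 12 wk, while at 8 wk both strains had libraries under 20 CPM. At 10 wk WKY rats had 99.2, 33.1, 35.7 and 126 CPM and SHRs 13.1, 78.8, 35.5, 63.5 and 48.3 CPM. At 16 wk WKY rats had 25.1, 21.5 and 40.6 CPM against a median of 34.1 in SHRs, and at 24 wk 12.7, 93.7 and 29.7 CPM against a median of 52.4. The strains thus overlapped at 10, 16 and 24 wk. The log2 fold changes were -1.47 (SE 0.53), -0.60 (SE 0.53), -2.32 (SE 0.55), 0.10 (SE 0.58) and 0.15 (SE 0.58) in the order of the ages. The estimate at 10 wk was thus little larger than its SE.

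In the CVLM, Igfbp5 was higher in SHRs at each age, with log2 fold changes of 2.13, 2.19, 1.31, 1.54 and 1.75. At 8 wk WKY rats had 27.0, 21.5, 20.7, 18.5 and 17.0 CPM and SHRs 89.8, 111, 73.2, 109 and 81.5 CPM. At 10 wk WKY rats had 16.2, 22.1, 23.5 and 12.6 CPM and SHRs 76.4, 94.8, 106, 96.5 and 52.2 CPM. All SHRs lay above all WKY rats at 8 and 10 wk. At 12 wk the WKY rats rose closest to the SHRs, with 21.5, 37.6 and 42.5 CPM against 40.3 to 129 CPM. At 16 wk they had 32.2, 24.7 and 33.4 CPM against 63.4 to 134 CPM, and at 24 wk 22.8, 24.9 and 22.2 CPM against 52.0 to 111 CPM. The strains overlapped at 12 wk and were apart at 16 and 24 wk.

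The RVLM difference was largest at 8 wk, where WKY rats had 7.06, 6.69, 4.36, 6.42 and 4.67 CPM and SHRs 5.62, 15.2, 11.9, 13.8 and 11.9 CPM. Of these 5 SHRs, 4 lay above all WKY rats. At 10 wk all SHRs, at 8.59 to 16.0 CPM, lay above all WKY rats, which had 7.34, 8.57, 8.03 and 5.84 CPM. From 12 wk on the strains overlapped, with WKY rats at 7.80, 10.9 and 15.1 CPM, then 12.8, 9.52 and 23.0 CPM, then 3.93, 16.8 and 11.4 CPM. The log2 fold changes were 0.98, 0.55, 0.37, 0.17 and 0.30. At a limit of 1.5-fold in each estimate, Igfbp5 was lower at 8, 10 and 12 wk in the NTS, higher at all 5 ages in the CVLM and higher at 8 wk in the RVLM.

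**Figure D1:**
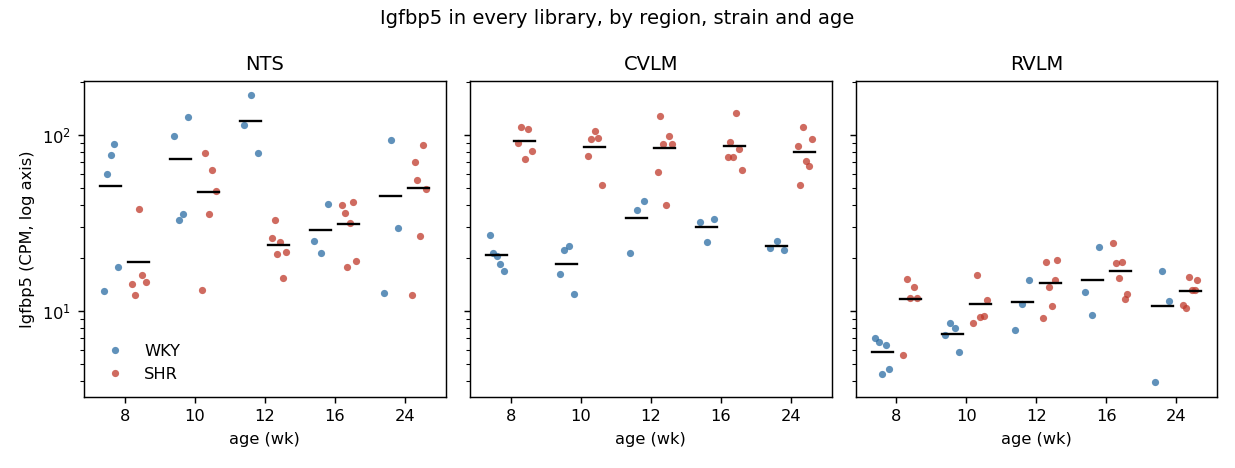
Igfbp5 in CPM on a log axis against age in weeks, in 1 panel per region; each point is a library (blue WKY, red SHR) and black bars are group means. SHRs lay above WKY rats at all ages in the CVLM with an overlap at 12 wk, and below them in the NTS at 8 to 12 wk in the mean.

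The regions of 1 rat can be compared directly. In WKY rats the mean levels of Igfbp5 were ordered NTS, CVLM, RVLM from highest to lowest, and in SHRs CVLM, NTS, RVLM. The NTS lay above the CVLM in 14 of 18 WKY rats, and the CVLM above the NTS in 26 of 28 SHRs. The RVLM was the lowest of the regions in all rats but 1 SHR, in which it lay above the NTS. With the animal as a block, the strain effect of the NTS was lower than that of the CVLM by a log2 difference of -2.54 (-3.02 to -2.06 within 2 SE) and than that of the RVLM by -1.26 (-1.79 to -0.74), and the CVLM exceeded the RVLM by 1.28 (0.74 to 1.81). These differences chose the gene and are given without a test, and the ranges within 2 SE make no allowance for that choice. The spread between rats of a group was widest in the NTS, with a pooled SD of log2 CPM of 0.905 against 0.381 in the CVLM and 0.533 in the RVLM.

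**Figure D2:**
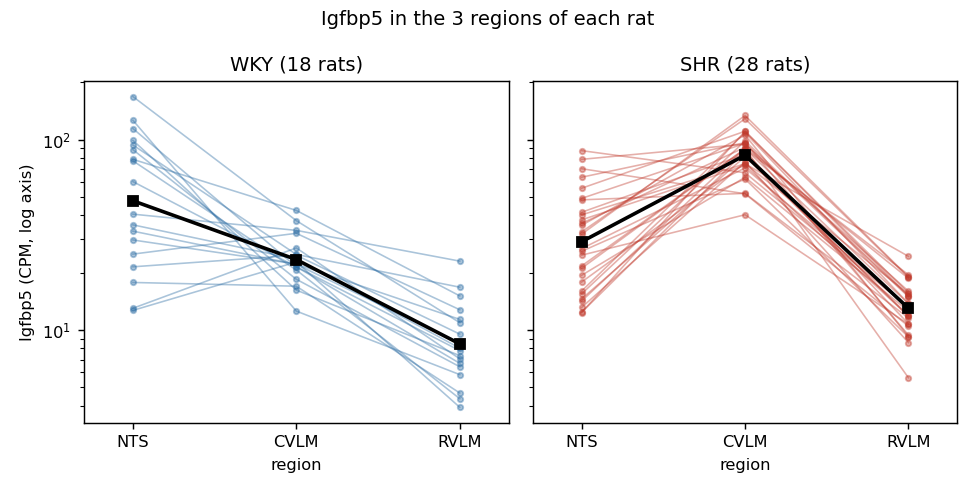
Igfbp5 in CPM (log axis) in the NTS, CVLM and RVLM, with 1 line per rat and 1 panel per strain (18 WKY rats, 28 SHRs); black lines join geometric means. The line falls from the NTS to the CVLM in 14 WKY rats and rises in 26 SHRs.

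Age was not used to choose Igfbp5 and was tested within strains. The gene differed between ages in the RVLM of WKY rats (adjusted p = 0.0342, edgeR's F test over ages), where its medians were 6.42, 7.69, 10.9, 12.8 and 11.4 CPM. Of all genes tested there, 6.79% were called. The adjusted p was 0.0687 in the CVLM and 0.137 in the NTS of WKY rats, and 0.105, 0.949 and 0.293 in the NTS, CVLM and RVLM of SHRs. In the NTS of SHRs the medians were 14.6, 48.3, 23.2, 34.1 and 52.4 CPM, and the difference of 24 from 8 wk was 1.38 (SE 0.51) on the log2 scale with an adjusted p of 0.457. With the number in the library names as a term, the call in the RVLM of WKY rats was lost, and number and age are partly confounded there.

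Over the 30 groups of region, strain and age, the genes whose mean levels followed Igfbp5 most closely were Npy2r (Pearson r = 0.89), a presynaptic neuropeptide Y receptor, Chrm3 (0.84), a muscarinic acetylcholine receptor, and Nrsn1 (0.84), Plk2 (0.83), Rxrg (0.83) and Zmynd8 (0.82). The lowest correlations were those of Tmtc4 (-0.84), Mkrn3 (-0.83) and Asrgl1 (-0.83). These are values of log2(CPM + 1) across group means that share libraries and regions, and carry no p. Among the IGF genes, Igf1 (0.77) and Igfbp3 (0.77) had the highest r and Igfbp2 (-0.61) the lowest.

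Igfbp2 and Igfbp5 are neighbours in the rat genome, with 0 genes annotated between them, and in both strains the RVLM had the lowest mean level of Igfbp5 and the highest of Igfbp2. In the RefSeq annotation of the GRCr8 build, all 10 genes matched a promoter. The 250 bases before the start of each neighbour are shown because the genes lie side by side and differ in pattern. Capitals mark GGGCGG, a motif of GC-rich promoters. The Igfbp2 stretch lies on the plus strand at chr9:81864561-81864810 and is 64% G or C, and the Igfbp5 stretch lies on the minus strand at chr9:81914188-81914437 and is 51.6% G or C.
Igfbp2: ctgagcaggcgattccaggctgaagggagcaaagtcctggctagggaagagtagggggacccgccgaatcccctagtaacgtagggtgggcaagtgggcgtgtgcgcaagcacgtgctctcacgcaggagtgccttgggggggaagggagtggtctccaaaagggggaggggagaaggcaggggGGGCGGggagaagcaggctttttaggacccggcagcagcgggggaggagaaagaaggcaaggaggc
Igfbp5: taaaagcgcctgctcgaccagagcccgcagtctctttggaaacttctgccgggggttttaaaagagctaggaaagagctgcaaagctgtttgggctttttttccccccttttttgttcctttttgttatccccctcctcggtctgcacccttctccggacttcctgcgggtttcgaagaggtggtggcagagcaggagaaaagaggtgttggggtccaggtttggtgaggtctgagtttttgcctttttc
Each stretch was read on both strands for 3 motifs. These were TATAAA (the core of the TATA box), GGGCGG (the GC box) and the CCAAT box, none of which contains another. The Igfbp2 stretch held 1 copy of the GC box and the Igfbp5 stretch held no copy of any of the 3. Among 33469 promoters of this length, 12.9% held the TATA core, 30.5% the GC box and 34% the CCAAT box.

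Across the other 9 genes, only Igfbp4 and Igfbp6 passed the threshold for a strain effect over ages, both lower in SHRs. In the NTS, 1 of 9 was called (Igfbp6), in the CVLM 2 of 9 and in the RVLM 2 of 9 (Igfbp4 and Igfbp6 in both). Of all genes tested, 11.2%, 12.3% and 10.8% were called in these regions in either direction, and 5.51%, 7% and 4.98% as lower in SHRs. With 9 genes, the counts lie near the shares called in either direction, and they rest on these 2 genes. Including Igfbp5, the median log2 fold change of the 10 genes was -0.18, 0.04 and -0.02, against 0.01, -0.00 and 0.01 for all genes.

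**Figure D3:**
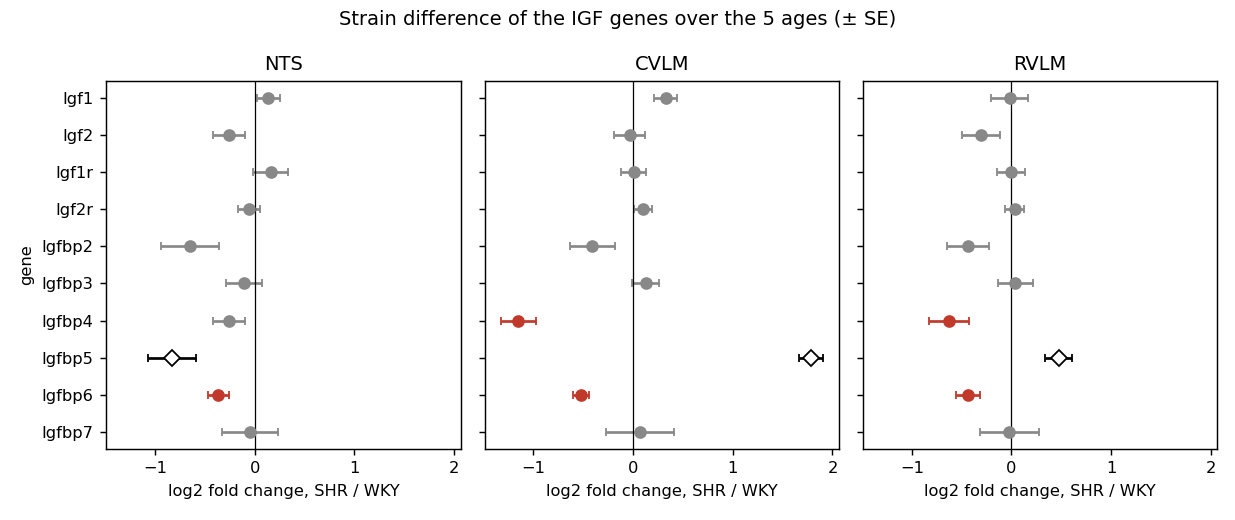
Log2 fold change of SHRs against WKY rats over all ages (point, with its SE as a bar) for the 10 genes, in 1 panel per region; red marks an adjusted p under 0.05, grey the rest, and the open diamond Igfbp5, which was not tested. The red points are Igfbp6 in all 3 regions and Igfbp4 in the CVLM and RVLM, all below 0.

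Of the ligands, Igf1 averaged 5.58 ± 1.70 CPM (SD, n = 18) in the CVLM of WKY rats and 7.09 ± 1.91 CPM (n = 28) in that of SHRs, a log2 fold change of 0.33 (SE 0.12) that missed the threshold in edgeR (adjusted p = 0.0639). DESeq2 called it (adjusted p = 0.0439). By age its log2 fold changes in the CVLM were 0.66, 0.67, 0.60, 0.04 and -0.34, none called. The medians of WKY rats were 5.12, 3.78, 5.42, 6.46 and 8.29 CPM in the order of the ages and those of SHRs 8.45, 7.48, 7.17, 6.25 and 6.09 CPM. The strains overlapped at all 5 ages, with 4 of 5 SHRs above all WKY rats at 8 wk and 4 of 6 below them at 24 wk. Its log2 fold changes in the NTS and RVLM were 0.14 (SE 0.12) and -0.02 (SE 0.18). Igf2, whose product is made mainly by the choroid plexus and meninges in the adult brain, had log2 fold changes over ages of -0.26, -0.03 and -0.30 with adjusted p values from 0.386 to 0.945.

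Igf2 was the only one of the 9 genes called at a single age in the NTS, at 12 wk (log2 fold change -1.32, adjusted p = 0.0265 in edgeR). At single ages in the NTS, 5.79%, 4.44%, 3.1%, 1.73% and 2.46% of all genes were called in the order of the ages. The WKY rats of 12 wk had 3.16, 13.0 and 4.50 CPM, and the SHRs 1.72 to 6.17 CPM with a median of 2.04. The value of 13.0 is that of replicate 2, the library with choroid plexus markers at 4533 CPM. Without this rat the log2 fold change was -0.50 (adjusted p = 0.798), and without all 5 such libraries -0.28 (adjusted p = 0.911). With the replicate number as a block the value was -0.94 (adjusted p = 0.742). Leaving out single SHRs of 12 wk lost the call as well, and it was gone in 5 of 46 fits that each left out 1 rat. With those 5 libraries left out, the log2 fold change of Igf2 over ages was 0.05 in the NTS.

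The receptors showed no strain effect past the threshold. Igf1r, at mean levels of 8.68 to 10.4 CPM in every region and strain, had log2 fold changes of 0.16 (SE 0.17), 0.01 (SE 0.13) and -0.00 (SE 0.14) in the NTS, CVLM and RVLM. Igf2r, at mean levels of 17.5 to 20.9 CPM in every region and strain, had -0.06 (SE 0.11), 0.10 (SE 0.09) and 0.03 (SE 0.10). In the NTS these means over ages stand over values of opposite sign at the first ages, none called in edgeR. They were -0.80 at 8 wk against 0.83 at 10 wk for Igf1r, and -0.66 (adjusted p = 0.0761) against 0.49 for Igf2r.

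Igfbp4, whose product mainly inhibits IGF action, showed the strongest effect among the tested genes. In the CVLM it averaged 1.87 ± 0.594 CPM (SD, n = 18) in WKY rats and 0.807 ± 0.372 CPM (n = 28) in SHRs, a log2 fold change of -1.15 (SE 0.18, adjusted p = 2.18e-06). It is a low gene there, with 8 to 40 counts per WKY library and 1 to 19 per SHR library. At 10 wk WKY rats had 1.97, 2.07, 2.57 and 1.84 CPM and SHRs 0.935, 0.688, 0.762, 1.05 and 1.05 CPM. At 16 wk WKY rats had 1.74, 2.97 and 1.94 CPM and SHRs 0.235 to 1.27 CPM with a median of 0.649. All SHRs lay below all WKY rats at 10, 12 and 16 wk and the strains overlapped at 8 and 24 wk. The difference at 12 wk was not called (adjusted p = 0.0881 in edgeR).

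At single ages Igfbp4 fell in the CVLM at 10 wk (-1.23, adjusted p = 0.0428) and 16 wk (-1.77, adjusted p = 0.00502). At single ages in the CVLM, 7.64%, 3.18%, 2.62%, 2.27% and 7.13% of all genes were called in the order of the ages. The call at 10 wk was lost in 11 of 46 fits that each left out 1 rat, with an adjusted p of up to 0.151, and the value was -1.28 (adjusted p = 0.12) with the replicate number as a block. In the RVLM it averaged 1.28 ± 0.661 and 0.811 ± 0.320 CPM, from 2 to 25 counts per library (log2 fold change -0.63, SE 0.20, adjusted p = 0.0375). That call was lost in 8 of 46 fits that each left out 1 rat, and without WKY replicate 2 of 24 wk the value was -0.32 (adjusted p = 0.418). With all rats, the RVLM value was not called without a filter on low counts (adjusted p = 0.0565). Over the 7 alternative settings in edgeR or DESeq2, it ran from -0.64 to -0.51, with adjusted p values from 0.0249 to 0.306. In the NTS it was -0.26 (SE 0.16, adjusted p = 0.385).

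Igfbp6, whose product binds IGF-2 in preference to IGF-1, fell in all 3 regions. It averaged 19.0 ± 5.33 and 15.0 ± 3.32 CPM in WKY rats and SHRs in the NTS (log2 fold change -0.37, SE 0.10, adjusted p = 0.0135), 53.3 ± 19.0 and 38.8 ± 8.44 CPM in the CVLM (-0.53, SE 0.08, adjusted p = 2.24e-06) and 46.8 ± 16.5 and 34.3 ± 10.3 CPM in the RVLM (-0.44, SE 0.12, adjusted p = 0.0117). The ranges of the strains overlapped in each region. The NTS call was lost without WKY replicate 1 of 16 wk (-0.31, adjusted p = 0.0525), and without the 5 libraries rich in choroid plexus markers it was -0.48 (adjusted p = 0.00422).

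In the CVLM, Igfbp6 was lower in SHRs at 12 wk (-0.70, adjusted p = 0.0192), 16 wk (-0.69, adjusted p = 0.0270) and 24 wk (-0.88, adjusted p = 0.00133). At 24 wk WKY rats had 61.3, 61.7 and 81.0 CPM and SHRs 29.4 to 50.4 CPM with a median of 35.6. All SHRs lay below all WKY rats at 10, 16 and 24 wk, though the difference at 10 wk was not called (adjusted p = 0.154 in edgeR). The call at 12 wk was lost in 2 of 46 such fits, and without WKY replicate 1, at 96.8 CPM, the value was -0.37 (adjusted p = 0.491). It was -0.44 (adjusted p = 0.408) with the replicate number as a block. The call at 16 wk was lost in 5 of 46 fits that each left out 1 rat, and without WKY replicate 1 of that age, at 82.4 CPM, the value was -0.51 (adjusted p = 0.470). For Igfbp4 at 16 wk, leaving out WKY replicate 2 gave -1.50 (adjusted p = 0.106).

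**Figure D4:**
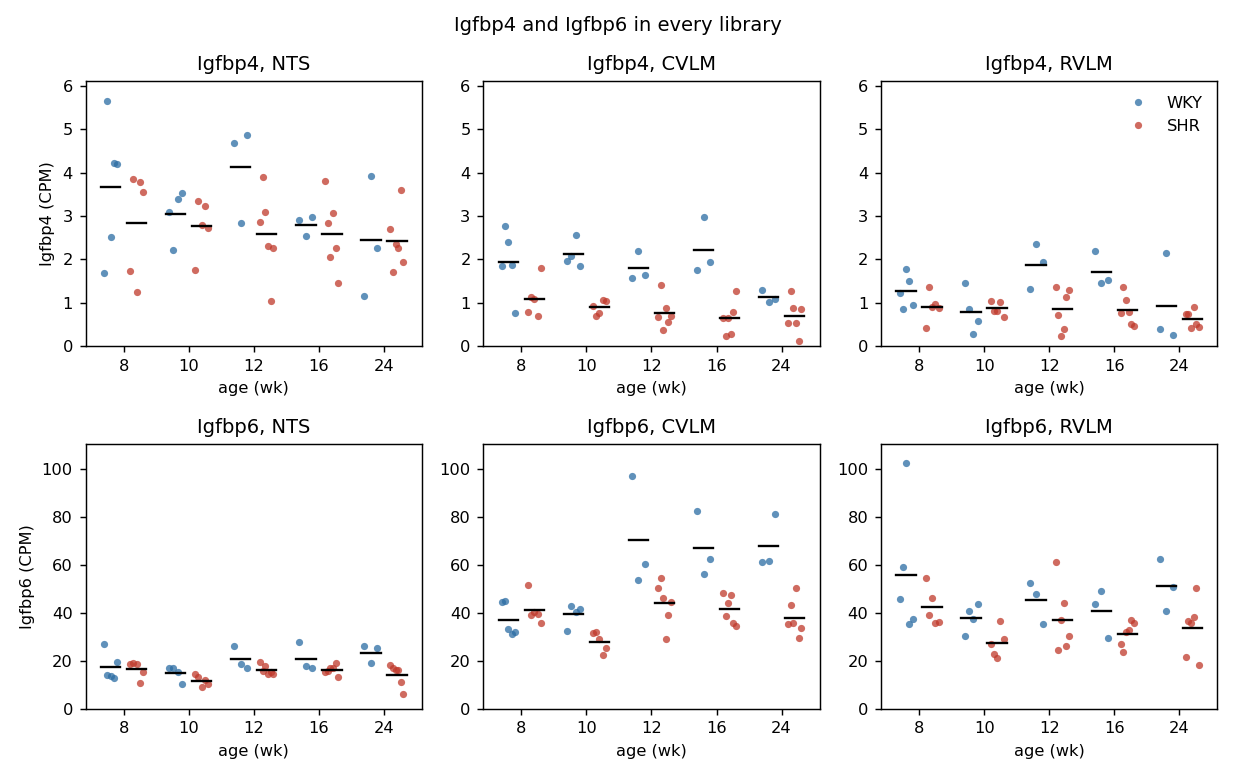
Igfbp4 and Igfbp6 in CPM (linear axis from 0) against age in weeks by region; each point is a library (blue WKY, red SHR) and black bars are group means. In the CVLM all SHRs lie below all WKY rats for Igfbp4 at 10, 12 and 16 wk and for Igfbp6 at 10, 16 and 24 wk.

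Of the remaining binding proteins, Igfbp2, the most abundant one in cerebrospinal fluid, had lower means in SHRs in all regions without passing the threshold, with log2 fold changes of -0.65 (SE 0.29, adjusted p = 0.17), -0.41 (SE 0.22, adjusted p = 0.286) and -0.44 (SE 0.21, adjusted p = 0.209). The fold changes by age were -0.92, -1.04, -1.28, -0.98 and 0.99 in the NTS and -1.29, -0.59, -0.41, -0.28 and 0.38 in the RVLM on the log2 scale, none called, with an adjusted p of 0.0525 for the RVLM at 8 wk. At that age the RVLM of WKY rats had 78.0 to 239 CPM with a median of 124, and that of SHRs 20.2 to 84.9 CPM with a median of 53.5, and 4 of 5 SHRs lay below all WKY rats. At 10 wk all SHRs lay below all WKY rats in both the NTS and RVLM, though neither difference was called. The NTS values ran from 1.54 to 101 CPM in WKY rats and from 1.72 to 41.8 CPM in SHRs. The highest was WKY replicate 5 at 8 wk, where choroid plexus markers summed to 1842 CPM, and without the 5 libraries rich in these markers the NTS value was -0.37. Igfbp3, whose product carries most IGF in blood, and Igfbp7, a protein of vessel walls with low affinity for IGFs, had log2 fold changes over ages between -0.11 and 0.13. For Igfbp7 these stand over values of opposite sign at the first and last age, none called. For the NTS they were -1.36 at 8 wk against 1.37 at 24 wk, for the RVLM -1.59 (adjusted p = 0.0887) against 1.07, and for the CVLM -0.61 against 1.10. Mean levels of Igfbp3 were 2.23 to 3.67 CPM and those of Igfbp7 20.2 to 29.1 CPM over regions and strains. In the CVLM, 5 of the 45 pairs of the 9 genes and 5 ages were called in all, as described, and in the RVLM 0 of 45, with 5 at an unadjusted p under 0.05 and 1 by DESeq2. In the RVLM, 9.78%, 2.3%, 1.7%, 1.65% and 2.24% of all genes were called at the 5 ages. Markers of ependyma, which lines the ventricle, were lower in SHRs for 2 of 5 genes in the NTS, and those of microglia for 1, 2 and 1 of 6 in the NTS, CVLM and RVLM. Tmem119 was the microglia gene called in each region, while Itgam and Csf1r had positive log2 fold changes in each, none called. Markers of oligodendrocytes were lower in SHRs for 1, 4 and 3 of 6 genes in the NTS, CVLM and RVLM, and those of pericytes and smooth muscle higher for 2, 1 and 3 of 6. Of all genes tested, 11.2%, 12.3% and 10.8% were called in these regions in either direction, and 5.51%, 7% and 4.98% as lower in SHRs. The part of these cell types in the results was not tested.

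No difference of the strain effect between regions passed the threshold for the 9 genes. Of all genes, 1.85% differed for the NTS against the RVLM, 0.343% for the NTS against the CVLM and 0.29% for the CVLM against the RVLM. For the 9 genes the counts were 0, 0 and 0 in edgeR's quasi-likelihood test with the animal as a block, 0, 1 and 0 at an unadjusted p under 0.05 and 0, 1 and 0 in limma voom. The 1 gene was Igfbp4, whose strain effect in the NTS exceeded that in the CVLM by 0.88 (0.42 to 1.34 within 2 SE, adjusted p = 0.0527). Without the 2 CVLM libraries of conflicting age it was 0.96 (adjusted p = 0.0304).

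The levels of many of the 9 genes differed between the regions in both strains, and so did those of many other genes. In the comparisons with the NTS, the counts lay near the shares of all genes. Between the NTS and RVLM, 5 of 9 were called in WKY rats and 5 in SHRs, against 62% and 64.3% of all genes. Igf1 was higher in the NTS by 1.27 and 1.41 on the log2 scale (adjusted p = 3.86e-10 and 2.22e-16), Igfbp4 by 1.32 and 1.68, and Igfbp3 by 0.51 and 0.33. Igfbp2 was lower by 2.20 and 2.34 in size, with 1.54 to 101 CPM (median 23.5) in the NTS of WKY rats against 19.0 to 239 CPM (median 101) in their RVLM. It lay higher in the RVLM than in the NTS in 17 of 18 WKY rats and 28 of 28 SHRs.

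Igfbp6 had its lowest level in the NTS in all 46 rats, with log2 differences from the RVLM of -1.25 and -1.18 and from the CVLM of -1.50 and -1.37 in WKY rats and SHRs. Between the NTS and CVLM, 4 of 9 genes were called in WKY rats and 5 in SHRs, against 52.4% and 55.5% of all genes. Igfbp4 was higher in the NTS in both strains (0.80 and 1.68), and Igf1 lower (-0.40 and -0.62). Igf2r was called only in WKY rats (0.24) and Igfbp2 (-0.63) and Igfbp3 (-0.36) only in SHRs, though for none of these 3 genes did the strain effect differ between the regions past the threshold.

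Between the CVLM and RVLM, 6 of 9 genes were called in WKY rats and 3 in SHRs, against 39% and 45.4% of all genes. Igf1 was higher in the CVLM by 1.66 and 2.03 (adjusted p = 6.08e-15 and 7.59e-26), and Igfbp3 by 0.60 and 0.70, while Igfbp2 was lower (-1.85 and -1.71). In WKY rats Igfbp4 (0.52) and Igfbp6 (0.25) were also higher and Igf2 lower (-0.53). Igf1r and Igfbp7 were called in none of these comparisons.

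Between ages, few of the 10 genes were called, and the counts changed with the number in the library names. In WKY rats, 0, 2 and 1 of the 10 genes differed between ages in the NTS, CVLM and RVLM, against 12.5%, 22.2% and 6.79% of all genes. The count of 0 was 4 at an unadjusted p under 0.05 and 3 in DESeq2. In SHRs the counts were 1, 3 and 1, against 18.7%, 20% and 14.1% of all genes. Once the number was a term, none of the 10 genes was called in SHRs in any region, nor in WKY rats in the CVLM and RVLM.

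Igfbp6 in the CVLM of WKY rats showed the clearest age difference (adjusted p = 1.86e-04 over ages in edgeR). Its level at 8 wk was 44.6 and 44.8 CPM in the libraries of number 1 and 33.2, 31.2 and 32.0 CPM in those of number 2, and at 10 wk, where all have number 2, it was 32.6, 43.0, 40.3 and 41.7 CPM. At 12, 16 and 24 wk, all of number 1, it ran from 53.6 to 96.8 CPM. All 9 later libraries lay above the 9 of 8 and 10 wk. With the number as a term, the difference of Igfbp6 between ages was not called here, and number and age are partly confounded. The rise from 8 to 24 wk was 0.90 (SE 0.19, adjusted p = 0.0027), the only one of the 10 genes called between these ages in any region or strain. In this comparison 13.7% of all genes were called in either direction and 9.14% as higher at 24 wk. In the other 5 comparisons of these ages, 0 of the 10 genes were called by edgeR, with 1 to 3 at an unadjusted p under 0.05 and 0 to 2 by DESeq2. Of all genes, 0.464% were called in the NTS and 0.179% in the RVLM of WKY rats, and 0.232%, 0.649% and 0.358% in the NTS, CVLM and RVLM of SHRs.

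Igf2 was called over ages in SHRs in all 3 regions (adjusted p = 0.00666, 0.0259 and 0.024 for the NTS, CVLM and RVLM). Its medians in the order of the ages were 6.91, 2.39, 2.04, 2.26 and 2.90 CPM in the NTS. For the CVLM they were 4.92, 1.80, 2.77, 2.84 and 2.16 CPM, and for the RVLM 3.69, 1.34, 4.31, 3.61 and 2.46 CPM. The NTS and CVLM values were highest at 8 wk, and those of the CVLM and RVLM lowest at 10 wk. Igf2 is also the gene with 31.2% of values not whole, and such values arise where RSEM divides reads between several annotated features. Igf1r in the CVLM of SHRs (adjusted p = 0.044) had medians of 5.18 CPM at 8 wk and 13.7 CPM at 10 wk.

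A rat's level in 1 region can be set against its level in another, after the mean of its group of strain and age is taken off. In 30 such relations over 46 rats, 5 had an adjusted p under 0.05 in a two-sided permutation test within groups with 100000 resamples, all of them positive. Positive values were common to most genes. Over 12674 genes with a count in every library, the median Pearson r was 0.327 between the NTS and CVLM, 0.257 between the NTS and RVLM and 0.199 between the CVLM and RVLM, and the medians of the 10 IGF genes were 0.236, 0.256 and 0.139. Igfbp7 gave the strongest, between the NTS and CVLM, with Pearson r = 0.746 and Spearman rho = 0.694 (permutation p = 1e-05, the smallest these permutations can give, adjusted p = 3e-04 over the 30 relations), and 0.513% of all genes had an r as high. Without the 2 rats farthest from the median in the NTS, r was 0.715. Between the NTS and RVLM, Igfbp7 had r = 0.648 and rho = 0.598 (permutation test, adjusted p = 9e-04), r = 0.63 without the 2 farthest rats, and 2.04% of all genes as high. Between the CVLM and RVLM r was 0.14 (adjusted p = 0.589). Over all ages the level of Igfbp7 ran from 4.23 to 63.0 CPM in the NTS of WKY rats and from 4.31 to 52.7 CPM in that of SHRs.

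**Figure D5:**
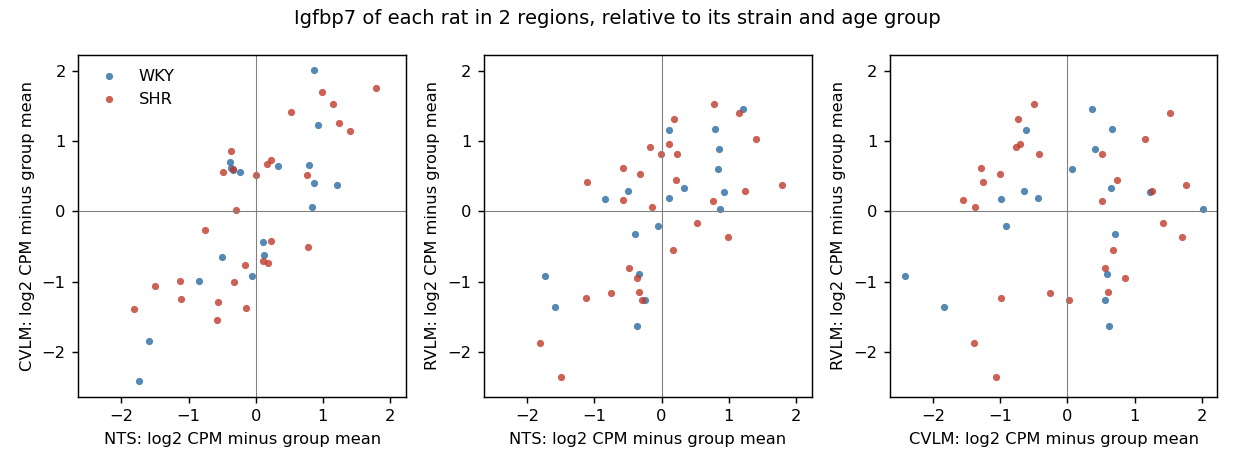
Igfbp7 of each rat as log2 CPM minus the mean of its strain and age group, in 1 region against another (46 points per panel, blue WKY, red SHR). The points rise together for the NTS with the CVLM (r = 0.746) and with the RVLM (r = 0.648), less so for the CVLM with the RVLM (r = 0.14).

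Igfbp2 was related between the NTS and CVLM (r = 0.594, rho = 0.593, adjusted p = 0.0021 by permutation, r = 0.519 without the 2 farthest rats). Igfbp5 was related between the CVLM and RVLM (r = 0.449, rho = 0.527, adjusted p = 0.00487, r = 0.474 without the 2 farthest rats), but not past the threshold between the NTS and the CVLM (r = -0.141) or RVLM (r = 0.29). Igfbp3 between the NTS and RVLM had r = 0.542 (adjusted p = 0.0338) and rho = 0.402 (adjusted p = 0.0973), and r = 0.401 without the 2 farthest rats. For the relations of Igfbp2, Igfbp5 and Igfbp3 named here, 10.3%, 9.07% and 9.15% of all genes had an r as high. Without the libraries of number 2 outside 10 wk, 6 of the 30 relations passed over 41 rats.

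The wider IGF and insulin pathway was described by a list of 58 genes, of which 53 are in the tables and 44, 45 and 44 were tested in the NTS, CVLM and RVLM. In SHRs, 3, 3 and 4 were higher and 4, 3 and 3 lower. This is 7, 6 and 7 of those tested, and the medians of their log2 fold changes were 0.03, 0.05 and 0.03. Of all genes tested, 11.2%, 12.3% and 10.8% were called, so the counts in the list lie near the background. Among the genes of the list called in all 3 regions, the largest differences were those of Pik3r1, the regulatory subunit of phosphoinositide 3-kinase, and Insr, the insulin receptor, which also pairs with the IGF-1 receptor.

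Pik3r1 fell in all 3 regions, with log2 fold changes of -1.44, -1.50 and -1.54 (adjusted p = 2e-22, 8.41e-23 and 1.35e-24 in edgeR). Mean levels were 84.8, 81.4 and 93.5 CPM in WKY rats and 31.4, 29.3 and 33.0 CPM in SHRs. All 28 SHRs lay below all 18 WKY rats in each region, in the RVLM at 21.0 to 45.3 CPM against 76.0 to 120.0 CPM. Insr fell by 1.31, 1.54 and 1.35 on the log2 scale (adjusted p = 1.13e-15, 3.89e-19 and 2.29e-15). Its means were 15.9, 17.7 and 14.8 CPM in WKY rats and 6.44, 6.29 and 5.99 CPM in SHRs, with no overlap of the strains in the CVLM and RVLM.

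Fn1, which encodes the matrix protein fibronectin, also fell (-0.69, -1.17 and -1.09, all 3 called). Grb14, an adaptor that inhibits insulin receptor signalling, rose by 0.51, 0.40 and 0.39, Lrp2 (megalin), an endocytic receptor, by 0.61, 0.43 and 0.63, and Vtn (vitronectin), a matrix protein, by 0.22, 0.22 and 0.24. The Vtn call in the NTS was lost without the 5 libraries rich in choroid plexus markers (0.14, adjusted p = 0.383). In 46 fits that each left out 1 rat, it was lost in 7, and the Vtn call in the RVLM in 1. The Lrp2 call in the CVLM was lost in 7 of 46 such fits, with an adjusted p of up to 0.0694. Map2k1, a kinase of the MAP kinase cascade, fell by 0.17 in the NTS. Nov (CCN3), a matricellular protein with an IGF-binding domain, rose in the RVLM from 0.869 ± 0.303 to 3.20 ± 0.813 CPM (log2 fold change 1.96, SE 0.13, adjusted p = 5.25e-16), and all SHRs lay above all WKY rats there. In the NTS and CVLM its log2 fold changes were 0.21 (adjusted p = 0.130) and 0.36 (adjusted p = 0.149), and the difference of these effects between regions was not tested.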

How the data were processed

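Gene expression in 3 brainstem nuclei of 46 female rats was measured by RNA-seq. Per the authors' methods, STAR 2.6.1 within RSEM 1.3.1 aligned the reads to rn6, and the authors deposited expected counts per gene, not normalized, in 1 table per region. The genome is of another rat strain, and the effect of strain variants on the mapping was not tested. The methods also name a batch adjustment with ComBat_seq. Whether the tables hold it is not stated in the sources used here, and 4.95% of their values are not whole. Column names gave each library's rat, and 0 columns were left unused. In 270 pairs of libraries within groups, the lowest chi-square per gene was 4.98, so none was taken for a repeat.

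These were rounded to whole numbers. Genes entered the tests where the highest rlog value in a region reached 3.5, which left 13793, 13408 and 13411 genes in the NTS, CVLM and RVLM. Each region was fitted over its 10 groups in edgeR 4.0.16 (R 4.3.3, TMM, quasi-likelihood test), with contrasts over and at single ages and an F test over ages. Differences between regions came from 1 fit that joined the regions and blocked on the animal. Adjusted p values are Benjamini-Hochberg values over all genes tested. DESeq2 1.42.0 and limma 3.58.1 (voom) were alternatives. On simulated counts with known changes, 91%, 92% and 91% of genes changed by 0.5 on the log2 scale were recovered in the NTS, CVLM and RVLM. The changed genes were drawn only from those with higher counts, and all genes were given the same spread. These shares therefore do not cover low genes such as Igfbp4, or genes that vary more between rats. The p values measure the spread between rats of these groups.

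All 10 IGF genes are named. From the list of 58 pathway genes, up to 6 called genes per region are named by size of change (Map2k1 in the NTS and Vtn in the RVLM were added after their values were seen), and likeness to Igfbp5 names the 6 highest and 3 lowest genes. Members and lists were chosen with earlier results of these data known.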

Additional observations from a re-analysis of the deposited data

Results flagged for a closer look

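In 7 of 210 groups of 4 to 6 libraries, 1 library stood far from the rest of its group for an IGF gene, by the gap to its nearest neighbour relative to the range. Chance alone sets apart about 1 in 20 groups. For Igfbp5 in the NTS, SHR replicate 3 at 8 wk had 37.9 CPM and the others 12.4 to 16.0 CPM. For Igfbp7 in the NTS, SHR replicate 2 at 24 wk had 46.1 CPM, against 6.09 to 13.3 CPM in the others. For Igfbp3 in the RVLM at 8 wk, SHR replicate 3 had 0.672 CPM, with the others at 2.14 to 2.61 CPM, and WKY replicate 2 had 4.14 CPM, with the others at 1.58 to 2.13 CPM. For Igf1 in the RVLM, SHR replicate 3 at 16 wk had 2.78 CPM and the others 1.36 to 1.86 CPM. For Igf2, SHR replicate 1 at 12 wk had 6.17 CPM in the NTS with the others at 1.72 to 2.27 CPM, and WKY replicate 3 at 10 wk had 4.95 CPM in the RVLM with the others at 2.78 to 2.85 CPM.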

How the results depend on the processing

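No called value changed its direction under the alternatives run. Igfbp5's description kept its sign in all of them, at -0.73, 1.82 and 0.51 with the replicate block. Replicate numbers were not taken to pair the samples of a region, since not all same-numbered pairs correlated over 0.1 (32 of 54 did, range -0.31 to 0.535). Every pair did in the NTS at 12 and 24 wk and in the CVLM at 10 and 12 wk, and block values stand beside the calls of these ages. With the replicate block, the IGF genes called over ages were 0 in the NTS (1 as reported) and 1 in the RVLM (2), and at single ages 0 in the NTS (1) and 1 in the CVLM (5). Igfbp6 in the NTS was then -0.26 (adjusted p = 0.0876). DESeq2 called 3 genes between ages in the NTS of WKY rats (0), 2 in that of SHRs (1) and 2 in the RVLM of WKY rats (1), and 1 pair at single ages in the RVLM (0), as did a fit of each age alone (1). With the library number as a term, the age counts were 0 in the NTS, CVLM and RVLM of SHRs and 0 in the CVLM and RVLM of WKY rats. Without the number 2 libraries outside 10 wk, chosen after seeing the data, the counts were 1 over ages in the RVLM, 0 at single ages in the NTS, 3 between ages in the NTS of SHRs, and 1 and 0 in the CVLM and RVLM of WKY rats. Without a filter on low counts they were 1 over ages in the RVLM and 1 between ages in the CVLM of WKY rats, with filterByExpr 1 there, and without the 2 CVLM libraries of conflicting age 1 there and 1 for the strain effect between the NTS and CVLM, as in limma voom (1).

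Leaving out 1 rat gave 0 to 1, 2 to 3 and 1 to 2 genes called over ages in the NTS, CVLM and RVLM, and 0 to 2, 4 to 6 and 0 to 2 pairs at single ages. Between ages it gave 0 to 2, 1 to 2 and 0 to 2 in WKY rats and 1 to 4, 0 to 3 and 0 to 1 in SHRs. For levels in WKY rats it gave 2 to 4 between the NTS and CVLM (2 without replicate 1 or 3 of 12 or 24 wk) and 3 to 6 between the CVLM and RVLM (3 without replicate 3 of 24 wk), in limma voom with a fixed block, in place of edgeR's joint fit, which was not repeated for each rat. The joint fit without a filter was not run. Low genes limit what depth can show, since Igfbp4 had 1 to 40 counts per CVLM library.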
